A study of Mus musculus with 8 samples.

Results

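The mouse Runx transcription factors (*Runx1*, *Runx2* and *Runx3*), their shared non-DNA-binding partner *Cbfb* and the corepressors *Cbfa2t2* and *Cbfa2t3* were examined in RNA-seq libraries of hematopoietic progenitors with and without *Pcgf1*. These 6 genes were taken by symbol from the 23284 symbols of the deposited tables, and all 6 had reads in all 8 libraries. *Runx1t1*, the third gene of the Cbfa2t family, is described beside them and is not counted among them. The first cell type was the IdHPC, a line of LSK-derived progenitors from B6CBAF1/J mice that was transduced with hId3 and grown on TSt-4 stroma with IL-7, SCF and Flt3L. Control (labelled Pcgf1 fl/fl) and *Pcgf1*-KO (labelled Pcgf1 -/-) IdHPCs had 2 libraries each. By the study's methods, the *Pcgf1*-KO IdHPCs carried ERT2-Cre, a tamoxifen-activated recombinase, and had received 4-OHT for 4 days, while control IdHPCs of another experiment in the study were ERT2-Cre cells given ethanol in place of 4-OHT. The treatment of the control IdHPCs sequenced for RNA is not given in the sources used here. The second cell type was labelled LMPP (lymphoid-primed multipotent progenitor), taken from bone marrow and cultured, again with 2 libraries labelled Pcgf1 fl/fl (control) and 2 labelled Pcgf1 -/- (*Pcgf1*-KO, with ERT2-Cre), all with 4-OHT for 4 days. For LMPPs given 4-OHT and measured by RT-qPCR, the study describes culture on TSt-4 stroma with SCF, IL-7 and Flt3L. The deletion removes exons 2 to 7 of *Pcgf1*, a subunit of a variant Polycomb repressive complex. All libraries were made from poly(A) RNA, and the labels give passages 15 to 18 for every sample. The study describes its RNA-seq replicates as biologically independent, and the labels do not say whether they were separate animals or cultures. The p-values measure the spread between these libraries.

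RUNX proteins bind DNA through the Runt domain, and CBFB, which does not touch DNA itself, raises their affinity for it and protects them from degradation. RUNX1 is needed for the emergence of blood stem cells and for lymphoid and megakaryocyte development, RUNX3 acts in T, NK and myeloid cells, and RUNX2 is best known as the regulator of bone formation. CBFA2T2 and CBFA2T3 (also called MTGR1 and ETO2) do not bind DNA but bring NCOR and histone deacetylases to transcription factors. Each Runx gene is transcribed from a distal and a proximal promoter, and the protein made from the distal one starts with a different N-terminus.

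The 3 distal Runx promoters shared a stretch of 18 bases, shown here because few other promoters hold it and because it carries the letters that RUNX proteins bind. The windows of 30 bases below come from RefSeq promoters of GRCm38.p6, are written 5′ to 3′ on the strand of the gene, and have the shared stretch in capitals. The *Runx1* window is at chr16:92826025-92826054 on the minus strand (bases 21 to 50 after the start), the *Runx2* window at chr17:44814583-44814612 on the minus strand (bases 16 to 45 after the start) and the *Runx3* window at chr4:135120503-135120532 on the plus strand (bases -142 to -113).
Runx1 distal: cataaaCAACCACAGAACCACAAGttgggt
Runx2 distal: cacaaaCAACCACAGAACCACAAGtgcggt
Runx3 distal: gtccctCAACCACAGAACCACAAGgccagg
The stretch held the letters TGTGGT 2 times when both strands were read, with no overlap between the matches. Of 32851 mouse promoters of 300 bases, 4 held the whole stretch, namely the 3 Runx promoters and that of *Gm16225*, whose window overlaps the *Runx3* distal one on the other strand. At least 1 match to TGTGGT on either strand stood in 16.8% of all promoters and at least 2 matches in 1.81%. The distal promoters held 2 (*Runx1*), 3 (*Runx2*) and 2 (*Runx3*) matches, and the other 6 promoters of the members held 0. These matches are a description of the sequence. No binding was measured here.

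Distal and proximal promoters also differed in base composition. The distal window of *Runx1* had 45.0% G and C and 2 CG pairs, against 69.0% and 35 in its proximal one, and that of *Runx2* had 45.3% and 2. For *Runx3* the values were 63.7% with 8 CG pairs (distal) and 77.3% with 45 (proximal), and for *Cbfa2t3* 63.7% with 10 and 81.7% with 53. The single windows of *Cbfb* and *Cbfa2t2* had 30 and 51 CG pairs, while the median over all promoters was 52.7% and 7 CG pairs. The 250 bases before both *Runx3* starts are given because reads on the *Runx3* distal exon are described below, with CG pairs in capitals, for chr4:135120395-135120644 and chr4:135152295-135152544, both on the plus strand of GRCm38.p6.
Runx3 distal upstream: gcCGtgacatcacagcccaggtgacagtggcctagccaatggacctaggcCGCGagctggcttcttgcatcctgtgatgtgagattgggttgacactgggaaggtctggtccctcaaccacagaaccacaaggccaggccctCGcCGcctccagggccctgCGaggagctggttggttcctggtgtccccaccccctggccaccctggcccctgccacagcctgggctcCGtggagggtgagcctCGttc
Runx3 proximal upstream: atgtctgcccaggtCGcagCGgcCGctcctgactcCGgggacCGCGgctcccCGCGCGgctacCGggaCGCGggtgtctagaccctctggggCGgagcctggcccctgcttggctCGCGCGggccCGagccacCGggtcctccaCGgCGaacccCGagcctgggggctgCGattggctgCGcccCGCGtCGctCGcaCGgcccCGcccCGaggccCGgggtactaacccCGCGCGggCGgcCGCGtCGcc
The CG pairs are scattered in the first and dense throughout the second.

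The targeted gene was inspected first. IdHPC controls had 193 and 173 reads on *Pcgf1* exons 2 to 7, and *Pcgf1*-KO IdHPCs had 15 and 15. In LMPPs, the libraries labelled control had 84 and 0 reads there, and the libraries labelled *Pcgf1*-KO had 76 and 0. The labels of LMPP control 2 and LMPP *Pcgf1*-KO 1 thus go against the reads. LMPPs were therefore compared by label and, separately, as the 2 libraries without these reads against the 2 with them. Since this second split is also the split by replicate number, the genotype, the replicate number and any batch cannot be told apart in it. Each library held 9618849 to 25302206 reads on distinct exons. One library stood apart: in *Pcgf1*-KO IdHPC 2, 29.2% of the reads lay on the 3′-most exon of their gene, against 24.0 to 25.7% in the other 3 IdHPC libraries and 21.5 to 23.8% in LMPPs. The IdHPC libraries also held RNA of stromal type. The sum of 20 stromal marker genes was 4674 and 3972 CPM (reads scaled to the deposited library total) in controls and 9220 and 7048 CPM in *Pcgf1*-KO, with 18 of the 20 at 1 CPM or more and *Dcn* and *Lum* at 0, against 66.1 to 102 CPM in LMPPs. In bulk RNA, fewer cells of a type and less RNA per cell cannot be told apart. The sum of 10 early progenitor markers was 1472 and 1863 CPM in control and 1608 and 1328 CPM in *Pcgf1*-KO IdHPCs, and 2362 to 2450 CPM in LMPPs. These sums hold members with opposite differences. In IdHPCs 0 of the 10 were called, against 0.530% of all genes tested. *Cd34* (log2 fold change 0.97) and *Ly6a* (0.87) lay above and *Ptprc* (-0.64) below the controls. In the LMPP split limma called *Kit* (0.60) higher and *Ly6a* (-1.83), *Il7r* (-1.19) and *Cd48* (-0.67) lower without *Pcgf1* reads. Of all genes tested, 10.1% were called higher and 7.08% lower in this split.

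All 6 genes were lower on average in *Pcgf1*-KO than in control IdHPCs, by 11.3% (*Cbfb*) to 37.1% (*Runx3*), and none passed the test. *Runx3*, *Cbfa2t3* and *Runx2* were the genes whose *Pcgf1*-KO libraries both lay below both controls, which was so for 21.3% of all genes tested (25.6% lay above). In LMPPs compared by label, the means of all 6 differed by 0.444 to 2.14%. When the LMPP libraries were split by *Pcgf1* reads, *Cbfb* was 16.7% lower in the libraries without them, and it was the only one of the 6 past the threshold, as were 17.2% of all genes in this split. This call was lost in 5 of 11 alternative fits and when any 1 of the 4 libraries was left out.

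*Runx3* (chr4:134676567-134733905, plus strand, mm9) measured 87.8 and 118 CPM in control IdHPCs and 62.4 and 67.1 CPM in *Pcgf1*-KO IdHPCs. Both *Pcgf1*-KO libraries were below both controls, with means of 102.9 ± 21.3 and 64.7 ± 3.29 CPM (SD, n = 2 each). The log2 fold change was -0.65 ± 0.23 (SE), with an adjusted p of 0.23 by limma over 12273 genes. The groups remained apart without the 3′-most exon, at 32.7 and 40.6 CPM against 23.4 and 14.1 CPM. In LMPPs, *Runx3* measured 176 and 201.4 CPM under the control label and 207 and 177 CPM under the *Pcgf1*-KO label. The labelled groups overlapped, and so did the groups by *Pcgf1* reads (176 and 207 CPM with, 201.4 and 177 CPM without).

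*Runx1* (chr16:92601712-92826311, minus strand, mm9) measured 66.0 and 98.9 CPM in controls and 71.2 and 61.8 CPM in *Pcgf1*-KO IdHPCs. The groups overlapped, because *Pcgf1*-KO 1 lay above control 1. The log2 fold change was -0.28 ± 0.25 (SE), with an adjusted p of 0.63 by limma, and without control 2 it was 0.0078. In LMPPs it had 97.1 and 122 CPM under the control label and 119 and 105 CPM under the *Pcgf1*-KO label, which also overlapped.

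*Runx2* (chr17:44632936-44951746, minus strand, mm9) measured 82.1 and 83.3 CPM in controls, and 75.0 and 42.3 CPM in *Pcgf1*-KO IdHPCs. Both *Pcgf1*-KO libraries were lower than the controls, but mainly *Pcgf1*-KO 2, the library with the highest share of its reads at 3′ ends. The log2 fold change was -0.54 ± 0.28 (SE), with an adjusted p of 0.40 by limma. It was -0.14 without *Pcgf1*-KO 2 (adjusted p = 0.88) and -0.95 without *Pcgf1*-KO 1 (adjusted p = 0.037), so that *Pcgf1*-KO 2 decided this value. In such fits the group left with 1 library is assumed to vary like the other, so that their p says nothing of its own spread. Without the 3′-most exon the *Runx2* groups overlapped, at 35.3 and 30.8 CPM in controls and 31.5 and 9.08 CPM in *Pcgf1*-KO. In LMPPs the labelled controls had 149 and 154 CPM and the libraries labelled *Pcgf1*-KO 182 and 127 CPM, with the latter on either side of the former.

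*Cbfb*, the partner of all 3 Runx proteins (chr8:107694574-107741886, plus strand, mm9), measured 131.84 and 108.0 CPM in control and 139 and 73.7 CPM in *Pcgf1*-KO IdHPCs. The highest and the lowest value were both *Pcgf1*-KO libraries. The log2 fold change was -0.23 ± 0.29 (SE), with an adjusted p of 0.74 by limma, and 0.22 without *Pcgf1*-KO 2. LMPP *Cbfb* measured 171 and 141 CPM under the control label and 171 and 143 CPM under the *Pcgf1*-KO label. Replicate 1 was the higher in both labelled groups. Split by *Pcgf1* reads, the means were 170.7 ± 0.151 CPM with and 142.3 ± 1.35 CPM without them (SD, n = 2 each). The log2 fold change was -0.26 ± 0.07 (SE), with an adjusted p of 0.038 by limma. The adjusted p of *Cbfb* in this split was 0.0542 by edgeR's quasi-likelihood test, 0.107 by DESeq2 and 0.204 with the label as a term, the last chosen after seeing the data.

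*Cbfa2t3* (chr8:125152639-125223009, minus strand, mm9) measured 56.4 and 64.6 CPM in control and 32.6 and 50.2 CPM in *Pcgf1*-KO IdHPCs. *Pcgf1*-KO 1 was the lowest of the 4 libraries, and both lay below the controls. The log2 fold change was -0.56 ± 0.26 (SE), with an adjusted p of 0.35 by limma, -0.87 without *Pcgf1*-KO 2 and -0.26 without *Pcgf1*-KO 1. In LMPPs it measured 183 and 214 CPM under the control label, and the 203 and 195 CPM under the *Pcgf1*-KO label lay between them.

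*Cbfa2t2* (chr2:154262217-154365092, plus strand, mm9) measured 22.1 and 30.3 CPM in control and 23.1 and 17.6 CPM in *Pcgf1*-KO IdHPCs, with overlapping groups. Its log2 fold change was -0.34 ± 0.27 (SE), with an adjusted p of 0.58 by limma, and ranged from -0.56 without control 1 to -0.12 without control 2, with -0.16 without *Pcgf1*-KO 2 and -0.53 without *Pcgf1*-KO 1. The LMPP values were 21.4 and 26.2 CPM under the control label and 24.0 and 23.8 CPM under the *Pcgf1*-KO label. *Runx1t1*, the human homolog of which is fused to RUNX1 in acute myeloid leukemia, had 11 and 17 reads in control and 20 and 9 reads in *Pcgf1*-KO IdHPCs. It had 2 and 0 reads in LMPPs labelled control and 10 and 4 in those labelled *Pcgf1*-KO. *Runx1t1* stayed below 1 CPM in all 8 libraries and was not tested.

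**Figure D1:**
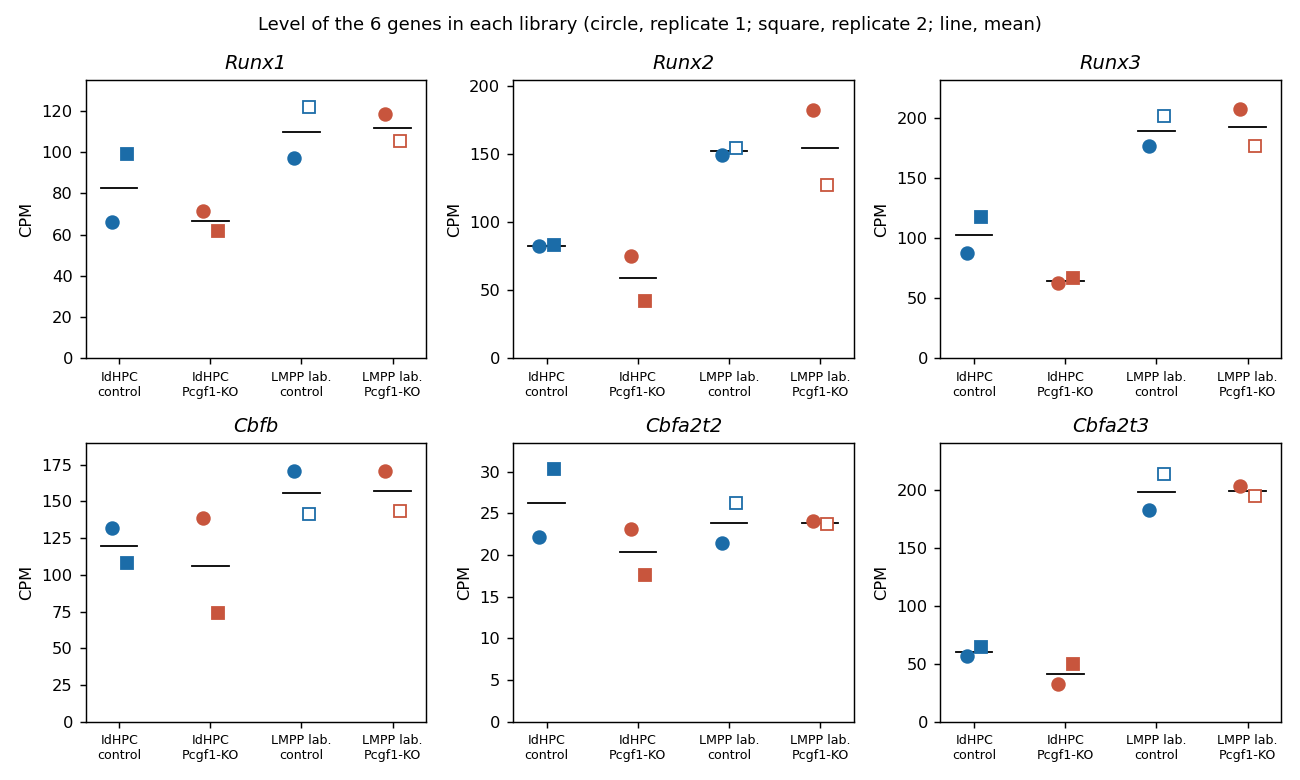
Level of each gene in CPM (vertical axis, from 0) in the 8 libraries, by cell type and label. Circles are replicate 1, squares replicate 2, lines the mean of 2 libraries, and open symbols the LMPP libraries with 0 reads on *Pcgf1* exons 2 to 7. *Runx3* IdHPC controls (87.8 and 118 CPM) lie above both *Pcgf1*-KO libraries (62.4 and 67.1 CPM), and LMPP *Cbfb* separates by replicate.

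Among the 12273 genes tested in IdHPCs, limma called 65 (0.530%), and 0 of the 6 were among them. The *Pcgf1*-KO libraries lay below both controls in 3 of the 6 genes and above them in 0, against 21.3% of all genes tested below and 25.6% above. The median log2 fold change of the 6 was -0.44, while that of all genes tested was 0.01. In the LMPP comparison by label, 0 of 12153 genes were called (0%). There 2 genes had an unadjusted p under the threshold of 0.05, and edgeR's exactTest and quasi-likelihood test and DESeq2 also called 0. The log2 fold changes of the 6 were 0.00 to 0.04 with SE of 0.13 to 0.18, each smaller than its SE. In the split by *Pcgf1* reads, limma called 2089 of 12153 genes (17.2%), and 1 of the 6 was called, a share close to that of all genes.

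Of the other members in the split, *Runx2* had a log2 fold change of -0.23 ± 0.12 (SE; adjusted p = 0.22 by limma), at 149 and 182 CPM with *Pcgf1* reads and 154 and 127 CPM without. *Cbfa2t2* (0.13 ± 0.11), *Cbfa2t3* (0.08 ± 0.09), *Runx1* (0.08 ± 0.11) and *Runx3* (-0.02 ± 0.10) had adjusted p of 0.48 to 0.92 by limma. The libraries with and without *Pcgf1* reads overlapped for each of these 5 genes. Leaving out 1 library moved *Runx2* between -0.38 (without the library labelled control 1, adjusted p = 0.038 by limma) and -0.091. *Runx1* (-0.064 to 0.22) and *Runx3* (-0.14 to 0.10) then changed sign, and *Cbfa2t2* (0.052 to 0.21) and *Cbfa2t3* (0.0076 to 0.16) did not.

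**Figure D2:**
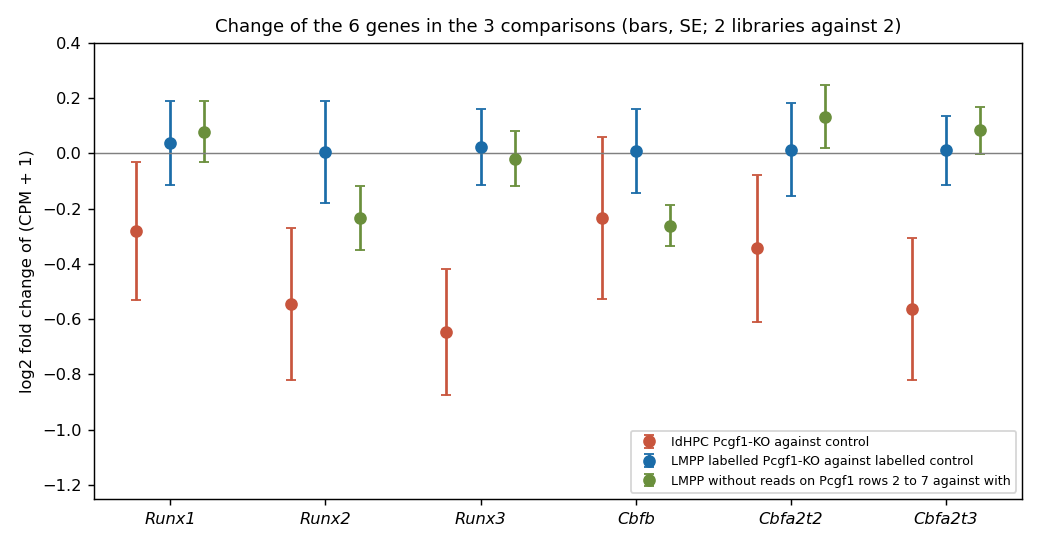
Log2 fold change of (CPM + 1) of the 6 genes (vertical axis) in the IdHPC comparison, the LMPP comparison by label and the LMPP comparison by *Pcgf1* reads. Points are limma estimates from 2 libraries against 2 and bars are SE. All 6 IdHPC estimates are below 0 (-0.65 to -0.23), and all 6 estimates by label are within 0.04 of 0.

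Levels of different genes were compared per kb of distinct exon, within a cell type. In IdHPCs, *Cbfb* had the highest mean (37.6 ± 9.79 CPM per kb, SD over 4 libraries), followed by *Runx3* (21.6 ± 6.52), *Cbfa2t3* (11.7 ± 3.11), *Runx2* (10.3 ± 2.78), *Runx1* (9.78 ± 2.20) and *Cbfa2t2* (3.83 ± 0.866). The ranges of *Cbfb* and *Runx3* over the libraries overlapped, but *Cbfb* was the higher within every library. The ranges of *Cbfa2t3*, *Runx2* and *Runx1* also overlapped, whereas *Cbfa2t2* lay below the rest in every library. In LMPPs, *Cbfb* (52.0 ± 5.47 CPM per kb), *Runx3* (49.1 ± 4.18) and *Cbfa2t3* (45.6 ± 2.99) had overlapping ranges at the top. Below them *Runx2* (22.3 ± 3.29), *Runx1* (14.5 ± 1.53) and *Cbfa2t2* (3.92 ± 0.323) were separate from each other. *Runx3* made up 44.2 to 54.8% of the summed Runx level per kb in the IdHPC libraries and 55.9 to 58.5% in LMPPs, the largest part in all 8. On the CPM scale, which favors long transcripts, *Runx1* had rank 3 and *Cbfa2t3* rank 5 in IdHPCs, and per kb these ranks were exchanged. The tables of the 2 cell types were normalized separately. Side by side and with no test, *Cbfa2t3* had 32.6 to 64.6 CPM in IdHPCs and 183 to 214 CPM in LMPPs, and *Cbfa2t2* 17.6 to 30.3 and 21.4 to 26.2 CPM. The stromal marker sums given above also differed between the cell types, and their part in these values was not tested.

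The tables list exons, which allowed each gene to be followed along its length. *Runx3* was lower in both *Pcgf1*-KO IdHPC libraries than in both controls at all 6 of its exons, against 24.9% of all exons tested. *Cbfa2t3* was lower at 8 of 12, *Runx2* at 4 of 8, *Cbfa2t2* at 3 of 11 (and higher at 1, against 14.1% of all exons), *Runx1* at 1 of 9 and *Cbfb* at 0 of 7. *Pcgf1*-KO 1 alone was below both controls at all 6 *Runx3* exons and at 11 of 12 *Cbfa2t3* exons, against 36.2% of all exons, and at 4, 3, 1 and 0 exons of *Runx2*, *Cbfa2t2*, *Runx1* and *Cbfb*. *Pcgf1*-KO 2 alone was below them at all 6 *Runx3*, all 8 *Runx2* and all 7 *Cbfb* exons, at 9 of 12 *Cbfa2t3* and 9 of 11 *Cbfa2t2* exons and at 6 of 9 *Runx1* exons, against 56.3% of all exons. Exons of 1 gene share their reads' source and are not replicates. Exons that overlap within *Runx1*, *Runx2* and *Cbfb* can count the same read. In LMPPs compared by label, 0 exons of the Runx genes and *Cbfb* were separate in either direction, *Cbfa2t3* had 1 lower and 1 higher exon of 13, and *Cbfa2t2* had 1 higher of 8, against 11% of all LMPP exons lower (12159 of 110249) and 10.4% higher.

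**Figure D3:**
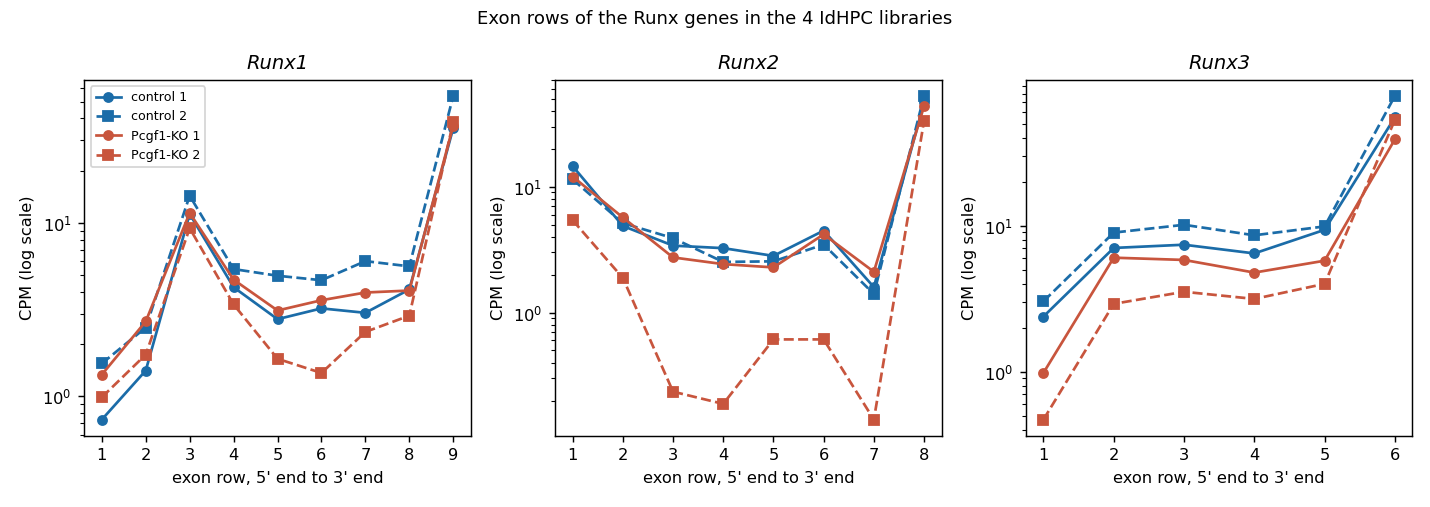
CPM of each exon of the Runx genes (vertical axis, log scale) in the 4 IdHPC libraries, from the 5′ end (left) to the 3′ end. Blue lines are controls and red lines *Pcgf1*-KO, with circles for replicate 1 and squares for replicate 2. Both red lines are below both blue ones at all 6 *Runx3* exons, and *Pcgf1*-KO 2 falls away within *Runx2* (38 reads on 5 coding exons).

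*Runx2* differed between libraries along its length. Its 5 internal coding exons, among them those of the Runt domain, summed to 15.5 and 13.8 CPM in controls, 13.7 CPM in *Pcgf1*-KO 1 and 1.79 CPM in *Pcgf1*-KO 2 (507, 483, 391 and 38 reads). *Pcgf1*-KO 2 alone was low, and its last *Runx2* exon still had 33.3 CPM, against 46.8, 52.5 and 43.5 CPM in the other 3. The ratio of coding to last exon was thus 0.332 and 0.264 in controls, 0.315 in *Pcgf1*-KO 1 and 0.0538 in *Pcgf1*-KO 2. For *Runx1* the same ratio was 0.374, 0.395, 0.406 and 0.217, and for *Runx3* 0.549, 0.486, 0.574 and 0.257, in the same order of libraries. *Pcgf1*-KO 2 was lowest in all 3 genes and *Pcgf1*-KO 1 was within or above the controls' values. The internal *Runx3* coding exons summed to 30.3 and 37.6 CPM in controls and to 22.4 and 13.6 CPM in *Pcgf1*-KO.

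The shift to the 3′ end in *Pcgf1*-KO 2 was above the median of all genes for each of the 6. Over 10208 genes, the share of reads on the 3′-most exon was higher in this library than in the mean of the other 3 by a median of 7.39 percentage points. For the members the difference was 8.70 points in *Runx1*, 14.3 in *Cbfa2t3*, 15.4 in *Runx3*, 16.5 in *Cbfa2t2*, 19.2 in *Runx2* and 21.7 in *Cbfb*. In *Cbfb*, for example, the last exon held 42.3 and 49.2% of the reads in controls, 41.6% in *Pcgf1*-KO 1 and 66.0% in *Pcgf1*-KO 2. Its CPM on this exon was close in all 4 libraries (55.7, 53.1, 57.8 and 48.7), while its first exon had 20.4, 12.2, 21.9 and 5.60 CPM. The low *Cbfb* total of *Pcgf1*-KO 2 thus lay upstream of the last exon.

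**Figure D4:**
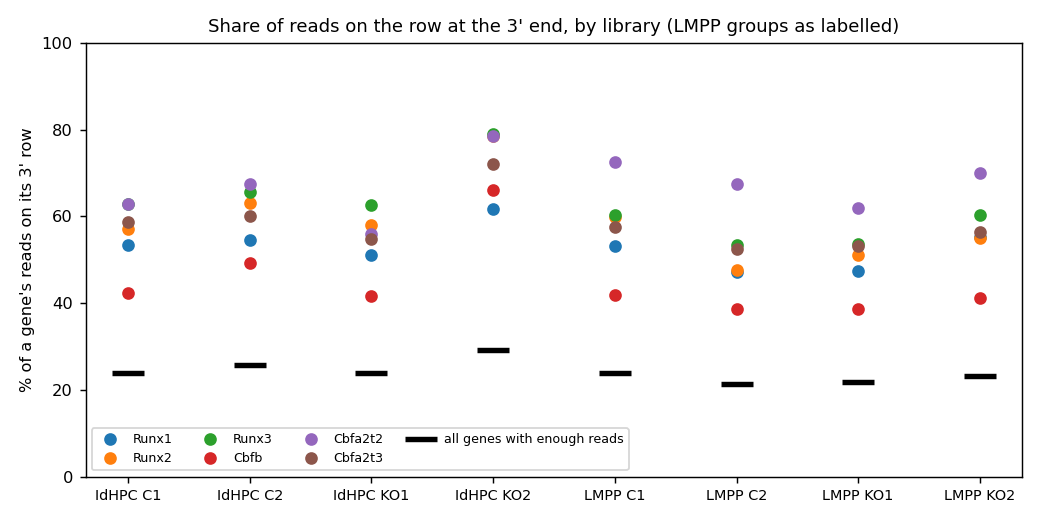
Share of each gene's reads on its 3′-most exon (vertical axis, %) in the 8 libraries. Dots are the 6 genes and bars the share over all genes with enough reads, C and KO being control and *Pcgf1*-KO as labelled. IdHPC KO2 is highest for the bar (29.2%) and for all 6 genes among the IdHPC libraries (*Runx3* 79.0%, *Runx1* 61.6%).

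Reads at the distal starts were few. The *Runx3* distal first exon (chr4:134676567-134677078, mm9) had 78 and 106 reads in control and 28 and 10 in *Pcgf1*-KO IdHPCs, or 2.39, 3.04, 0.983 and 0.471 CPM. Relative to these reads plus those on the second exon, which transcripts from both starts use, the distal share was 25.3% (Wilson 95% interval 20.8 to 30.5%) and 25.3% (21.4 to 29.7%) in controls. In *Pcgf1*-KO it was 14.0% (9.87 to 19.5%) and 13.9% (7.72 to 23.7%). Both *Pcgf1*-KO shares were lower than both control shares, and the interval of *Pcgf1*-KO 2 overlapped those of the controls. Over all genes, the share of reads on the 3′-most exon was 24.0% in *Pcgf1*-KO 1 and in control 1 and 29.2% in *Pcgf1*-KO 2, and its part in the distal share was not tested. In LMPPs the share was 15.8 and 14.3% under the control label and 16.6 and 10.5% under the *Pcgf1*-KO label, with overlapping intervals. With 2 libraries against 2 the smallest two-sided exact permutation p is 0.333, so that no test of a share was made.

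The 3 exons taken as the distal ones of *Runx2* were assigned no coordinates. They had 12 and 16 reads in control IdHPCs and 1 and 0 in *Pcgf1*-KO. By exon, the reads were 5, 4 and 3 in control 1, and 8, 4 and 4 in control 2. If a read counts on more than 1 of these exons, the sums hold fewer separate reads and the intervals are too narrow. The share of these exons in distal plus proximal first exon reads was 2.46% (1.42 to 4.26%) and 3.86% (2.39 to 6.19%) in controls. In *Pcgf1*-KO 1 it was 0.292% (0.0515 to 1.63%), with an interval that overlapped that of control 1. *Pcgf1*-KO 2 had 0 of 115 reads, with an upper limit of 3.23%, so that it could not be told from the controls. LMPPs had 0, 3, 5 and 0 reads there. The distal share of *Runx1* was 6.14 and 9.75% in controls and 10.5 and 9.59% in *Pcgf1*-KO IdHPCs, with overlapping intervals, and 3.85 to 4.71% in LMPPs. Of the reads on either first exon of *Cbfa2t3*, the distal one held 98.1 to 100% in IdHPCs and 89.5 to 94.7% in LMPPs. These intervals cover counting error only, because reads that carry no molecular identifier need not stand for separate molecules.

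**Figure D5:**
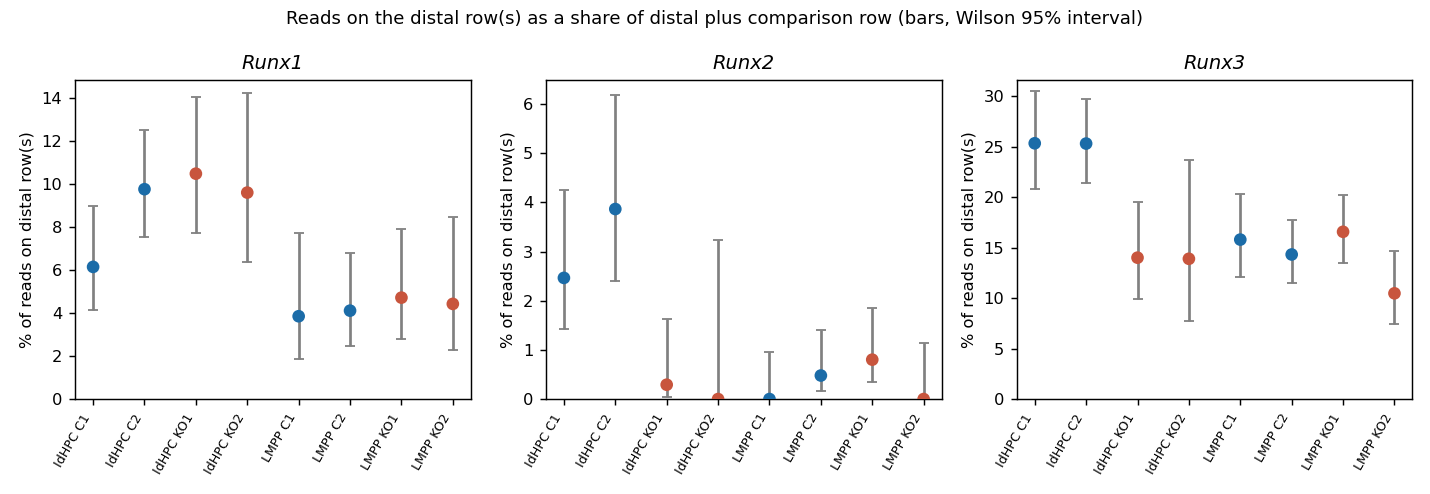
Reads on the distal exons of *Runx1*, *Runx2* and *Runx3* as a share of distal plus comparison exon (vertical axes, %, of unequal height) in the 8 libraries, blue for control and red for *Pcgf1*-KO as labelled. Bars are Wilson 95% intervals. The *Runx3* share is 25.3% in both IdHPC controls and 14.0 and 13.9% in IdHPC *Pcgf1*-KO.

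The genes around the Runx factors were counted from fixed lists. Of 16 corepressors and scaffold partners, 15 were tested in IdHPCs and 0 were called in either direction, with a median log2 fold change of -0.27 against 0.01 for all genes tested. The lowest estimates were *Rcor1* (-0.86, adjusted p = 0.33 by limma), which joins deacetylases to the demethylase KDM1A, and *Tbl1x* (-0.66, 0.43), and the highest *Gps2* (0.17, 0.80) and *Tle1* (0.14, 0.85). *Rcor1* measured 40.5 and 40.7 CPM in controls and 35.8 and 13.3 CPM in *Pcgf1*-KO, so that *Pcgf1*-KO 2 set it. Of 10 coactivators and modifiers, 0 were called, with a median of -0.27. The acetyltransferase genes *Ep300* (-0.80, adjusted p = 0.26) and *Kat6a* (-0.79, 0.36), listed as *Myst3*, had the lowest estimates, and *Yap1* (0.95, 0.14) and *Wwtr1* (0.73, 0.42), coactivators of the Hippo pathway, the highest. *Yap1* measured 9.52 and 9.17 CPM in controls and 23.1 and 15.6 CPM in *Pcgf1*-KO, and *Wwtr1* 5.45 and 3.30 CPM and 11.7 and 4.99 CPM. The stromal marker sum was likewise higher in *Pcgf1*-KO, and the part of stromal RNA in these values was not tested. *Ep300* measured 87.5 and 94.5 CPM in controls and 73.2 and 36.5 CPM in *Pcgf1*-KO, and *Kat6a* 92.2 and 94.6 CPM and 86.7 and 32.9 CPM. *Pcgf1*-KO 2 was again far the lower, as it was for *Tbl1x* (55.0 and 62.6 CPM in controls, 57.3 and 23.4 CPM in *Pcgf1*-KO). In LMPPs by label 0 genes of any list were called. In the split by *Pcgf1* reads 0 of 15 corepressors were called, against 17.2% of all genes. Of 9 coactivators tested, *Wwtr1* had 0.295 and 0.618 CPM (4 and 9 reads) with and 2.13 and 1.74 CPM (37 and 23 reads) without the *Pcgf1* reads. *Wwtr1* reached 1 CPM, the minimum for a test, only in the libraries where it was high, so that its call is not counted, and 0 of the rest were called.

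Among 16 partners of RUNX1 in stem and progenitor cells, 14 were tested in IdHPCs and 0 were called. *Erg* (1.04, adjusted p = 0.11 by limma) and *Tal1* (0.96, 0.16) had the highest log2 fold changes, and *Fli1* (-0.71, 0.27) and *Tcf12* (-0.52) the lowest, both with their lowest level in *Pcgf1*-KO 2. In the LMPP split, 6 of 16 were called higher without *Pcgf1* reads, against 10.1% of all genes called higher and 7.08% lower. These were *Gfi1* (0.78), *Gata2* (0.69), *Gfi1b* (0.64), *Tal1* (0.62), *Cebpa* (0.34) and *Erg* (0.34). The 1 called lower was *Spi1* (listed as *Sfpi1*, -0.28, adjusted p = 0.043 by limma), which encodes PU.1. The sums of mature myeloid markers and of erythroid and megakaryocyte markers, given below, also moved with this split. Their part in these values was not tested.

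Of 19 myeloid and megakaryocyte target genes of RUNX, 11 were tested in IdHPCs and 0 were called, with a median log2 fold change of 0.38. *Nfe2* had 5.24 and 6.88 CPM in control and 10.5 and 24.7 CPM in *Pcgf1*-KO (1.30, adjusted p = 0.13 by limma), and *Myh10*, a gene that RUNX1 silences in megakaryocytes, had 11.6 and 7.91 CPM and 25.5 and 17.7 CPM (1.07, 0.12). The sum of 11 erythroid and megakaryocyte markers was 6.37 and 7.42 CPM in control and 11.3 and 16.0 CPM in *Pcgf1*-KO IdHPCs. Of these 11, 4 were tested and 0 called. The stromal marker sum was likewise higher in *Pcgf1*-KO, and the part of either in these values was not tested. *Socs4* (-0.78), at 14.9 and 13.7 CPM in control and 13.9 and 4.33 CPM in *Pcgf1*-KO, and *Gfi1b* (-0.46) had the lowest values. In the LMPP split, 17 were tested, of which 8 were called higher and 3 lower without *Pcgf1* reads, against 10.1% of all genes called higher and 7.08% lower. Among those higher were the platelet genes *Pf4* (1.21) and *Itga2b* (0.54), the kinase gene *Prkcq* (0.87), *Gfi1*, *Gfi1b*, *Cebpa* and *Nfe2* (0.46). *Csf1r*, the macrophage growth factor receptor gene (-1.17), *Cdkn1a* (-1.04) and *Spi1* were lower. The sum of 12 mature myeloid markers, *Csf1r* among them, moved with this split, at 823 and 829 CPM with *Pcgf1* reads and 524 and 513 CPM without, with 0 of the 12 at 0. The sum of 11 erythroid and megakaryocyte markers, among them *Pf4* and *Itga2b*, moved the other way, at 160 and 148 CPM with and 238 and 276 CPM without *Pcgf1* reads, with *Hba-a1* at 0 in 3 of the 4 libraries. The part of either cell type in these differences was not tested.

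Of 22 lymphoid RUNX target genes, 12 were tested in IdHPCs, with a median of -0.02. *Blk*, a B cell kinase gene, was called lower and 0 genes were called higher, where 0.530% of all genes tested were called in either direction. Of the 12, 6 had a positive log2 fold change, the highest in *Ccr9* (1.59, adjusted p = 0.073 by limma). *Blk* measured 29.3 and 87.0 CPM in control and 0.702 and 4.09 CPM in *Pcgf1*-KO (log2 fold change -4.13 ± 0.55 (SE), adjusted p = 0.014 by limma). The sum of 8 B cell markers overlapped between the groups, at 30.9 and 92.1 CPM in control and 38.3 and 189.0 CPM in *Pcgf1*-KO, with *Ms4a1* at 0, and its members did not move alike. *Igll1* and *Vpreb1* held 90.5 and 73.6 of the 189.0 CPM. *Pax5* was lower in both *Pcgf1*-KO libraries, at 6.31 and 3.70 CPM in control and 2.42 and 0.423 CPM in *Pcgf1*-KO (-1.41, adjusted p = 0.15 by limma), as was *Blnk*, at 0.459 and 1.03 CPM and 0.316 and 0.141 CPM. Of the 8 markers 6 were tested and 0 called, and their part in the *Blk* values was not tested. In the LMPP split, 9 were tested, and 1 was called higher and 1 lower apart from *Blk*, against the 10.1% and 7.08% of all genes. *Zbtb7b* (0.64) was higher without *Pcgf1* reads. *Il7r*, at 3.47 and 3.23 CPM with and 1.15 and 0.681 CPM without them, was lower (-1.19). *Blk* had 2.21 and 2.54 CPM with and 0.633 and 0.833 CPM without them, and since it reached 1 CPM only in the libraries where it was high, its call is not counted. The sum of 12 T and NK cell markers was 64.8 and 59.8 CPM with *Pcgf1* reads and 37.3 and 37.1 CPM without, with *Ncr1* and *Gzma* at 0 in all 4 libraries. That of the 8 B cell markers was 25.4 and 19.5 CPM with and 15.0 and 15.9 CPM without, with *Ms4a1* at 0 in 3 of the 4. *Nkg7* alone measured 35.2 and 30.9 CPM with and 11.2 and 13.5 CPM without *Pcgf1* reads. Of these markers 5 were tested, and *Blnk* (-1.48), *Nkg7* (-1.35) and *Lck* (-0.59) were called lower. *Cd79b* (-0.19) and *Cd247* (0.20) were not called. The part of these markers in the values of the lymphoid genes was not tested. Of 12 skeletal RUNX2 target genes, 7 were tested in IdHPCs. *Vegfa*, an angiogenic factor gene, was called lower and 0 were called higher, against the same 0.530% of all genes. It measured 327 and 441 CPM in control and 80.1 and 106 CPM in *Pcgf1*-KO (-2.03 ± 0.24 (SE), adjusted p = 0.0067 by limma). Of the 7, 5 had a positive log2 fold change, and the median was 0.66, against 0.01 for all genes tested. Leaving out 1 library in turn, which leaves a group of 1 assumed to vary like the other, gave log2 fold changes of -4.92 to -3.34 for *Blk* and -2.24 to -1.82 for *Vegfa*. With no filter on low values, where 0 genes were called, the log2 fold changes were again -4.13 and -2.03 (adjusted p of 0.19 for *Blk* and 0.17 for *Vegfa* by limma), and without the 3′-most exon -4.14 and -2.20 (0.21 and 0.058), so that neither passed the threshold. The bone matrix genes *Col1a1* (1131 and 1100 CPM in control, 2185 and 2386 CPM in *Pcgf1*-KO; adjusted p = 0.065) and *Spp1* (0.89, adjusted p = 0.083) were not called. *Col1a1* is also 1 of the stromal markers, whose sum was likewise higher in *Pcgf1*-KO, and the part of stromal RNA was not tested. In the LMPP split *Vegfa* (1.06) was higher without *Pcgf1* reads and *Spp1* (-1.40) lower, of 3 tested, with the same shares of all genes beside them.

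As a description, the genes most like each member were ranked by Pearson correlation of log2(CPM + 1), centered within each table, over the 8 libraries and 11247 genes. The libraries share depth, the 3′ shift and the replicate split, so that these values carry no test. The nearest genes were *Usp27x* (0.984), *Acadsb* and *4930473A06Rik* for *Runx1*, *Trappc10* (0.994), *Senp5* and *Ythdc2* for *Runx2*, and *Nipal3* (0.998), *Dennd3* and *Taok2* for *Runx3*. For *Cbfb* they were *Dek* (0.994), *Tomm70a* and *Syncrip*, for *Cbfa2t2* *Cdk19* (0.997), *4930414N06Rik* and *Synj1*, and for *Cbfa2t3* *Leng8* (0.996), *Cntrob* and *D930048N14Rik*. Among the members, *Runx1* and *Cbfa2t2* (0.936) were most alike, followed by *Runx3* and *Cbfa2t3* (0.840) and by *Runx2* and *Cbfb* (0.832), and *Cbfb* and *Cbfa2t3* (-0.345) least.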

How the data were processed

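RNA-seq of 8 libraries was analysed from 2 tables of CPM deposited by the authors, made from poly(A) RNA with an mm9 alignment and edgeR. The methods name HISAT2 and Rsubread, and the submitters' processing notes TopHat2 2.0.13. Each table lists 284716 exons under 23284 symbols, without coordinates and with exons of several transcripts repeated. Since CPM were whole multiples of 1 read (tolerance 0.01), reads were recovered. Exons identical to the one before in all 8 libraries were counted once (106425 dropped), and the rest were summed per symbol. The repeats, 26.0 to 27.7% of a library's reads, remain in the deposited total. Whether a read spanning exons counts on each is not given in the sources used here. If it does, intervals and count tests are too narrow. Exon coordinates were matched by order to the mm9 annotation.

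Each table was tested alone with limma 3.58.1 (R 4.3.3) on log2(CPM + 1), 2 libraries against 2, with a trend of variance on mean and Benjamini-Hochberg adjustment (threshold 0.05). A gene entered when at least 1 of the 4 libraries reached 1 CPM, and an exon when 1 library had 10 reads. A gene table had been planned for, and exons were found. Genes named from a list are those called or, where 0 were called, the 2 highest and the 2 lowest. Others named were picked with their values known, as was the comparison of 3′ shares. *Kat6a* and *Spi1* were matched through older symbols. Alternatives were another pseudocount, other filters, a rescaling, edgeR 4.0.16, DESeq2 1.42.0, other sums of exons, a replicate block and leaving out each library. On simulated data with 200 genes altered (log2 change 2), limma recovered all 200 among 12273 IdHPC genes, with 14 false calls, and all 200 among 12153 LMPP genes, with 8. The simulated data had a fixed dispersion (spread beyond counting) of 0.02 and no 3′ shift. They check the code on large changes and do not measure power for the members or false calls in these libraries. Sequences came from RefSeq promoters (GRCm38.p6), in which all 6 members were found. The members and lists were chosen with earlier results of these data known. One gene of a list is counted but not reported here by name.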

Additional observations from a re-analysis of the deposited data

How the results depend on the processing

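On the CPM scale Runx1 and Cbfa2t3 had ranks 3 and 5 among the 6 in IdHPCs and 5 and 3 per kb, and in LMPPs Cbfb and Cbfa2t3 had ranks 3 and 1 and then 1 and 3. The few reads on the distal exons limit any statement on promoter use. In IdHPCs, 66 of 66 combinations of a member and an alternative other than leaving out a library kept the direction and stayed on their side of the threshold, and the log2 fold change of Runx3 ranged from -0.97 (without the 3′-most exon) to -0.65, with adjusted p of 0.11 to 0.58. By label in LMPPs 65 of 66 did so, the exception being Runx2 over all listed exons (-0.00019). In the LMPP split 61 of 66 did so, the exceptions being Cbfb with no trend (-0.26, adjusted p = 0.129), edgeR's quasi-likelihood test (-0.25, 0.0542), DESeq2 (-0.25, 0.107), without the 3′-most exon (-0.25, 0.133) and the label as a term (-0.26, 0.204).

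The number of IdHPC genes called was 65 in the main analysis, 0 with no filter, 104 after rescaling by the median ratio, 610 with exactTest, 124 with the quasi-likelihood test, 497 with DESeq2 and 3 without the 3′-most exon. In the LMPP split it was 2089, and 1098 without the 3′-most exon. With the replicate block, 669 genes were called in IdHPCs and 3 by label in LMPPs, and no call of a member changed. The labels do not say what libraries of the same number share, and the correlation of the replicates' differences between groups was 0.147 in IdHPCs and 0.705 in LMPPs, from 2 pairs each. The LMPP split by Pcgf1 reads cannot take the replicate number as a block, since it is the split by that number, and with the label as a term, which sets 1 library with and 1 without these reads side by side within each label, 1901 genes were called. The cause of these changes was not tested.

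Leaving out each library gave 14 to 825 calls in IdHPCs, 0 by label and 1291 to 1947 in the split. The log2 fold changes in IdHPCs were then -0.57 to 0.0078 (Runx1), -0.95 to -0.14 (Runx2), -0.86 to -0.44 (Runx3), -0.69 to 0.22 (Cbfb), -0.56 to -0.12 (Cbfa2t2) and -0.87 to -0.26 (Cbfa2t3). By label they were -0.13 to 0.20 (Runx1), -0.25 to 0.26 (Runx2), -0.091 to 0.14 (Runx3), -0.13 to 0.14 (Cbfb), -0.13 to 0.15 (Cbfa2t2) and -0.10 to 0.12 (Cbfa2t3). In the split they were -0.064 to 0.22 (Runx1), -0.38 to -0.091 (Runx2, called without control 1 at an adjusted p of 0.038), -0.14 to 0.10 (Runx3), 0.052 to 0.21 (Cbfa2t2), 0.0076 to 0.16 (Cbfa2t3) and -0.27 to -0.25 (Cbfb, no longer called in any of the 4). A group left with 1 library was assumed to vary like the other. In IdHPCs, leaving out 1 Pcgf1-KO library in turn gave 1 to 6 Runx1, 4 to 8 Runx2, 6 to 6 Runx3, 0 to 7 Cbfb, 3 to 9 Cbfa2t2 and 9 to 11 Cbfa2t3 exons below both controls, an alternative chosen after seeing the data.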
